A study of Mus musculus with 2 samples.

Results

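The genes described here code for the proteins of the cytosolic ribosome. They were chosen by name, as protein-coding mouse genes whose symbol is Rpl, Rps or Rplp followed by a number, with an optional a, x or y. The gene table holds 75 such genes. Of these, 67 had a probe under the match of probe IDs to gene IDs that is described with the processing, and 60 of them were detected, against 8384 genes and unnamed probes detected in all. The 60 comprised 35 of 39 large-subunit genes with a probe and 25 of 28 small-subunit genes with a probe. All 60 were detected on both arrays.

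Both cultures were of CD1 mouse embryonic fibroblasts, which serve as feeder cells for human embryonic stem cells. Their division had been stopped with the DNA crosslinker mitomycin C, and they had been replated on gelatine at 55000 cells per square centimetre. The FGF2 culture was then kept for 24 h with 40 ng/ml of FGF2 in a serum-replacement medium for human embryonic stem cells, and the control culture had the same medium with no added FGF2. Each was measured on 1 Illumina bead array with 1 colour, so no difference below has a replicate check, there are no p-values, and all comparisons are descriptions of 2 arrays. The labels do not say how many embryos the cells came from.

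The ribosome is built from a large subunit, which joins amino acids, and a small subunit, which reads the mRNA. Each protein is normally present once per ribosome, apart from the acidic stalk proteins, so the genes are known to be expressed together and at high levels. Growth factors are known to raise ribosome production through ERK, mTOR and Myc. The mRNAs of ribosomal proteins begin with a run of pyrimidines, known as the terminal oligopyrimidine tract, through which mTOR controls their translation. An array measures the amount of mRNA and not this translation.

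Ribosomal protein genes gave slightly higher signals on the FGF2 array. After quantile normalization, 44 of the 60 detected members had a log2 ratio of FGF2 over control above 0, and 16 had one below 0. The background share of positive ratios was 52.3% of all detected genes. The median log2 ratio of the members was 0.12, a fold of 1.09, beside 0.01 for all detected genes. In such bulk RNA, less RNA per cell and fewer cells of a type cannot be told apart. The members ranged from -0.20 for Rps10 to 0.70 for Rps6. At least 1.2-fold higher were 16 members, beside 17.6% of all detected genes, and no member was 1.2-fold lower, beside 16.8%. Only Rps6 was at least 1.5-fold higher, beside 4.34% of all detected genes, and none was 1.5-fold lower, beside 5.57%.

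The size of this shift depended on how the 2 arrays were put on one scale. Median scaling only divided each array by the median of its probes detected on both arrays, and then floored signals at the lowest detected signal. With it, 59 of 60 members were above 0, beside 54.6% of all detected genes. The members' median was 0.30, beside 0.03 for all detected genes. Under that scaling 35 members were at least 1.2-fold higher (background 20%) and 5 were at least 1.5-fold higher (background 4.94%). No member was 1.2-fold or 1.5-fold lower, beside 15.5% and 5.1% of all detected genes. In the authors' processed table the median was 0.29, with 35 members at least 1.2-fold higher (background 29.5%) and 7 at least 1.5-fold higher (background 11.2%). Quantile normalization gives both arrays the same distribution of signals, and 35 of the 100 brightest genes and probes were members. A shift shared by many of the brightest probes, whatever its source, would be partly removed by it. Whether the gap between the scalings comes from the cells or from the arrays was not tested, so values after both scalings are given for many members below.

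**Figure D1:**
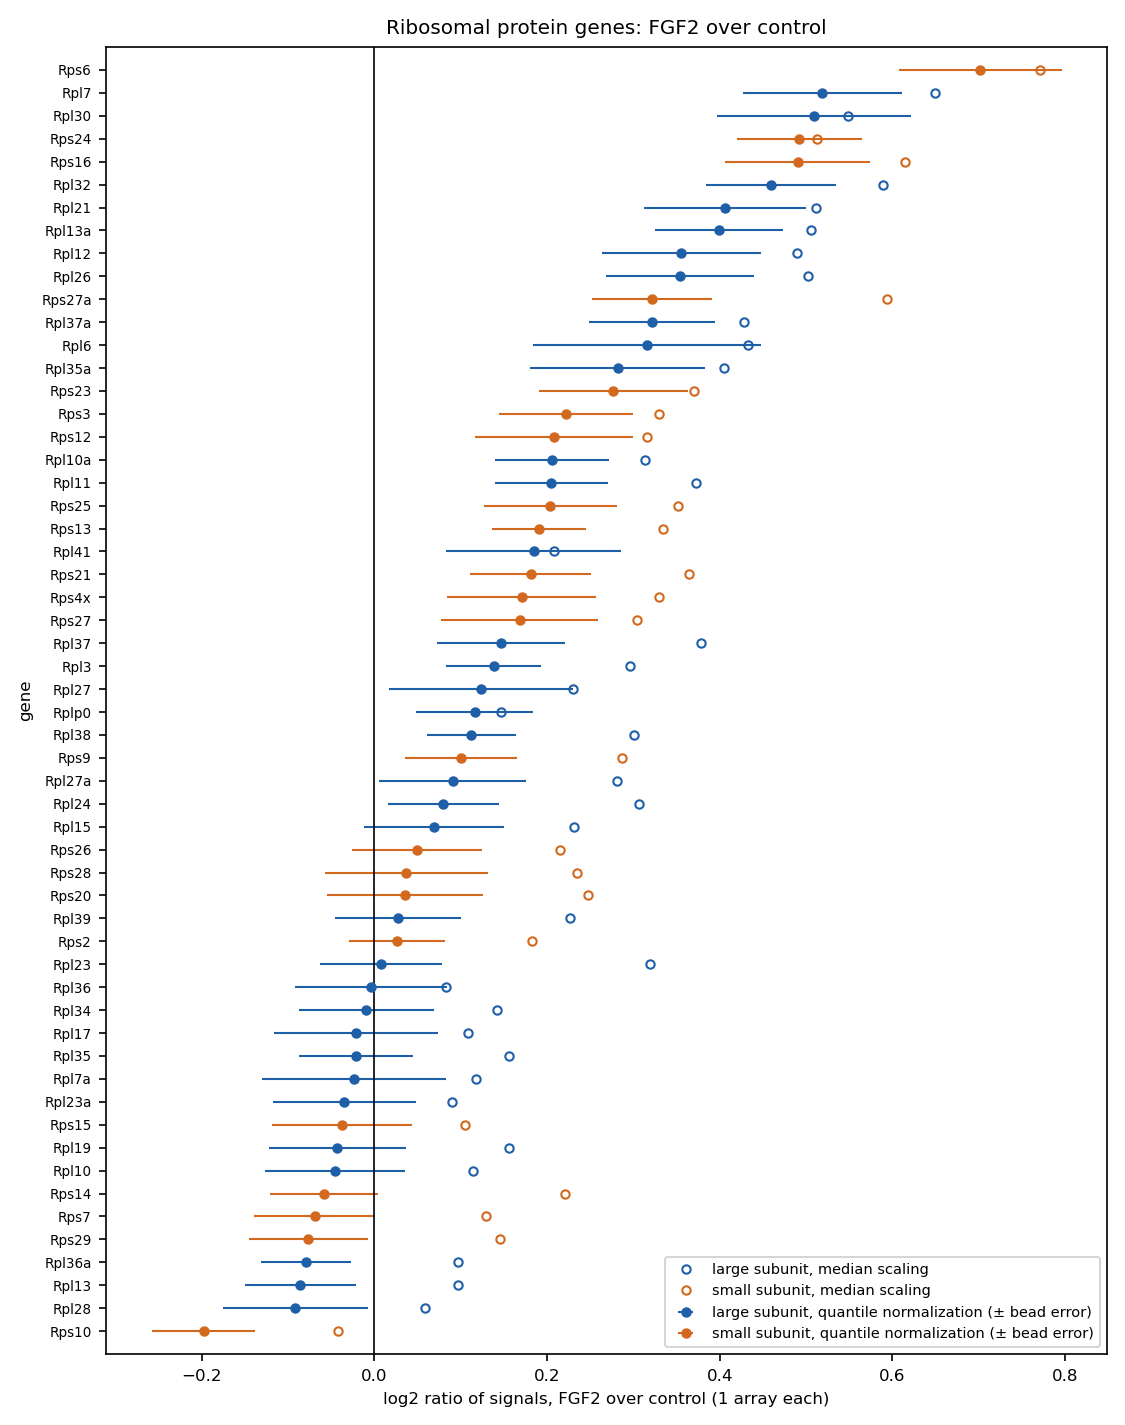
Log2 ratio of FGF2 over control for 56 of the 60 detected ribosomal protein genes, highest at the top, 1 array each; filled points are quantile-normalized with the bead error as bar, open points are the same genes after median scaling. Filled points run from -0.20 (Rps10) to 0.70 (Rps6), and after median scaling only Rps10 among them lies below 0.

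Error could be judged only from within the arrays. The bead error of a member's log2 ratio had a median of 0.08 and ran from 0.05 to 0.13. Of the 60 members, 26 were higher by more than 2 bead errors, beside 28.7% of all detected genes, 1 was lower by more than 2, beside 26.3%, and 33 lay within 2. After median scaling, 47 were higher by more than 2 bead errors, beside 31.5% of all detected genes, and none was lower, beside 24.5%. Across 299 pairs of probes for the same gene, taken from all named genes, the SD of a single probe's log2 ratio was 0.18. Ribosomal protein genes also have many pseudogene copies, so a probe may read more than its own gene.

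Rps6, the small-subunit protein that S6 kinases phosphorylate after growth factor stimulation, had the highest ratio (NCBI gene ID 20104, chromosome 4). Its normalized signal was 2295 on the FGF2 array and 1411 on the control array, which gives a log2 ratio of 0.70 (bead error 0.09). Its fold was 1.63 after quantile normalization and 1.71 after median scaling, and its log2 ratio in the authors' processed table was 0.83.

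The next 7 ratios ran from 0.40 to 0.52 on the log2 scale and belonged to 5 large-subunit and 2 small-subunit genes. Rpl7 had a normalized signal of 6553 with FGF2 and 4574 without (log2 ratio 0.52). Rpl30, which in mammals also binds the element that recodes stop codons to selenocysteine, had signals of 816 with FGF2 and 574 without (0.51). Rps24, a gene mutated in human Diamond-Blackfan anaemia, had signals of 606 with FGF2 and 431 without (0.49). The bead errors of these 3 log2 ratios were 0.09, 0.11 and 0.07, each well below the ratio itself. Rps16, whose tail reaches the decoding site, had signals of 12448 with FGF2 and 8862 without (0.49). Rpl32 had signals of 8343 with FGF2 and 6068 without (0.46). These were folds of 1.40 and 1.37, and after median scaling both genes passed 1.5-fold. Rpl21 had signals of 2930 with FGF2 and 2211 without (0.41), and Rpl13a, which in human monocytes can leave the ribosome to silence inflammatory mRNAs, 3967 with FGF2 and 3010 without (0.40).

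At the other end stood Rps10, a member that the ligase Znf598 marks with ubiquitin when ribosomes collide. Its normalized signal was 12016 on the FGF2 array and 13783 on the control array, a log2 ratio of -0.20 with a bead error of 0.06. It was lower in the deposited signals too (12190 with FGF2 and 13303 without). After median scaling the fold of FGF2 over control was 0.971, and Rps10 remained the only member below 1. That is a log2 ratio of -0.04, smaller in size than the bead error of 0.06. The -0.20 after quantile normalization was close in size to the SD of 0.18 of a single probe's log2 ratio.

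The other 7 of the 8 lowest ratios lay between -0.09 and -0.05, each less than 2 bead errors from 0. Rpl28 had a normalized signal of 11908 with FGF2 and 12689 without (log2 ratio -0.09). Rpl13 had 14961 with FGF2 and 15878 without (-0.09), and Rpl36a, an X-linked gene, 17733 with FGF2 and 18738 without (-0.08). These 3 genes turned to folds of 1.04, 1.07 and 1.07 above the control after median scaling. Rps29 had signals of 21175 with FGF2 and 22328 without (-0.08), Rps7 14257 with FGF2 and 14961 without (-0.07), and Rps14, whose human counterpart is lost in 5q- syndrome, 29883 with FGF2 and 31116 without (-0.06). Rpl10, an X-linked gene whose protein is needed for the subunits to join, had 10850 with FGF2 and 11201 without (-0.05). All 4 were also above the control after median scaling, at 1.11-fold, 1.09-fold, 1.16-fold and 1.08-fold.

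Sequences around the annotated transcription start are shown for the 3 highest and the 3 lowest members that have a promoter in the RefSeq table (build GRCm38.p6), so that both ends of the ranking can be compared. Each window covers 50 bases before and 50 bases from the start on, 5′ to 3′ on the gene's strand. Capitals mark matches of CTTTCC or CTCTTT, pieces of the pyrimidine tract, and of CCGGAAG, the core bound by Ets family factors, searched on both strands. Rps6 lies at chr4:86857318-86857417 (minus strand), Rps24 at chr14:24490628-24490727 (plus) and Rps16 at chr7:28350639-28350738 (plus). Rpl13 lies at chr8:123102300-123102399 (plus), Rpl28 at chr7:4792915-4793014 (plus) and Rps10 at chr17:27635195-27635294 (minus).
Rps6: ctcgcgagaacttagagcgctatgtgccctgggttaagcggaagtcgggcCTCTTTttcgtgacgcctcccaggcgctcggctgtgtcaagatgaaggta
Rps24: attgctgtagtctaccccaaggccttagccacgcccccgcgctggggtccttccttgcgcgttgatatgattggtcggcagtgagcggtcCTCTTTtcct
Rps16: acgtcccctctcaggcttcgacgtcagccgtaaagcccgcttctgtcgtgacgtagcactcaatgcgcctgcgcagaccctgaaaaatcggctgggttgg
Rpl13: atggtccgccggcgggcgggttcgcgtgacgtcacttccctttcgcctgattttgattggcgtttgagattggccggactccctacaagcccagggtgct
Rpl28: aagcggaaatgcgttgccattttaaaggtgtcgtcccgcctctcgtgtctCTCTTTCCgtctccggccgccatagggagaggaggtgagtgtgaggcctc
Rps10: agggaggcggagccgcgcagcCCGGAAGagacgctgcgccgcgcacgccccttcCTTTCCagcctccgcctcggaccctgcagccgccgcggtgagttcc

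Matches of the pyrimidine pieces were found at both ends of the ranking, in Rps6 and Rps24 and in Rpl28 and Rps10. Pyrimidine runs that hold neither piece, such as cttccctttc in the Rpl13 window, were not counted, so a gene without a match can still have a tract. The promoter table holds 65 windows of 55 ribosomal protein genes. CTTTCC was found in 34.5% of these genes and in 10.3% of all 27025 genes of the table. CTCTTT was found in 34.5% and 8.88%, and CCGGAAG in 21.8% and 5.98%. At least 1 of the pyrimidine pieces was in 30 of the 55 genes (54.5%), against 17.2% of all genes. The tract lies on the strand of the mRNA, and counted on that strand alone CTTTCC was in 32.7% of ribosomal protein genes and 5.43% of all genes, CTCTTT in 34.5% and 4.68%, and either piece in 52.7% and 9.29%. In 10 of the 65 windows matches of 2 motifs overlapped. Among detected members, the median log2 ratio was 0.14 in 14 genes with CTTTCC and 0.12 in 30 without it. It was 0.10 in 15 genes with CTCTTT and 0.12 in 29 without, and 0.11 in 11 genes with CCGGAAG and 0.12 in 33 without. The ranges of the genes with and without each motif overlapped. A match describes the letters in this window only, since annotated starts can lie some bases from the start that cells use.

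Large and small subunits were compared next. The 35 large-subunit genes had a median log2 ratio of 0.12 (range -0.09 to 0.52) and the 25 small-subunit genes one of 0.17 (range -0.20 to 0.70), a difference of -0.05. Above 0 were 24 of 35 large-subunit genes (68.6%) and 20 of 25 small-subunit genes (80%). At least 1.2-fold higher were 10 large-subunit genes (28.6%) and 6 small-subunit genes (24%), against the background of 17.6% given above. After median scaling the medians were 0.30 for the large and 0.30 for the small subunit, and the difference shrank to -0.01. The median mean signal was 8671 for the large-subunit and 12895 for the small-subunit genes. Among members with a mean signal of at least 5000, the quantile-normalized medians were 0.09 in 25 large-subunit and 0.10 in 21 small-subunit genes. That limit was chosen after the values were seen, and the part of brightness in the subunit difference was not tested. With 1 array a group, no error between cultures could be given for the subunit difference.

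**Figure D2:**
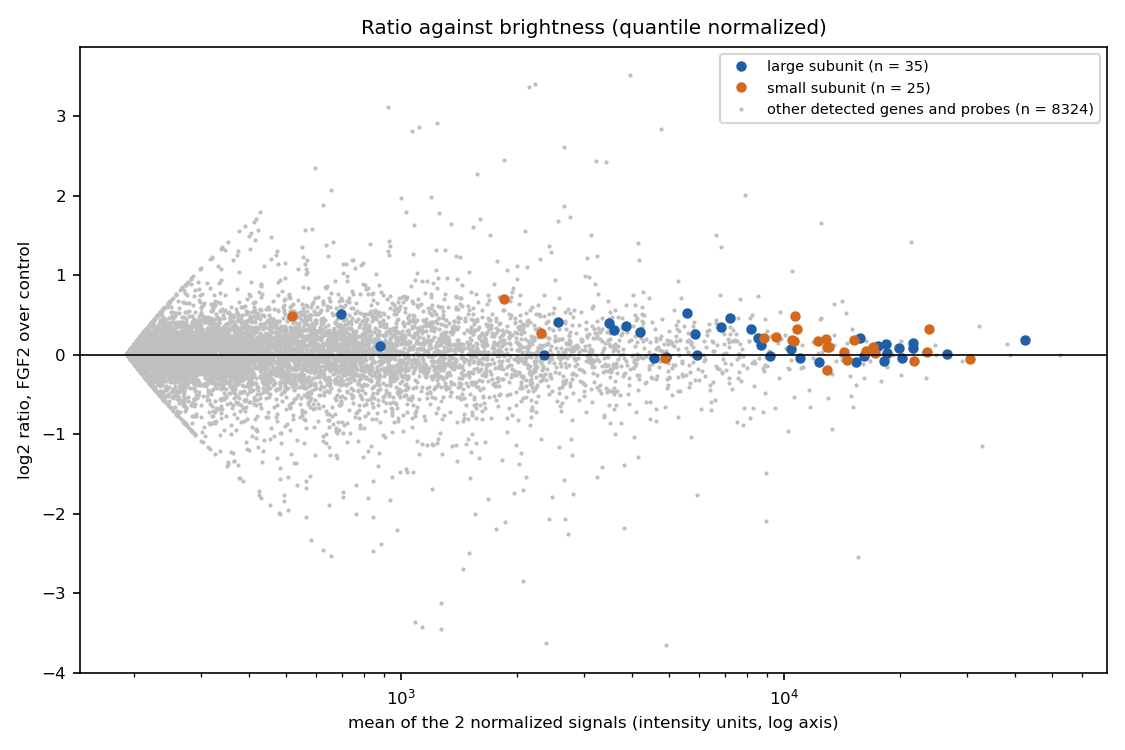
Log2 ratio of FGF2 over control against the mean normalized signal (log axis) for 35 large-subunit genes, 25 small-subunit genes and 8324 other detected genes and probes. Members lie toward the bright end, with mean signals from 518 to 42564, within a narrow band between -0.20 and 0.70.

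Ratios among the members were larger for dimmer probes. The 20 dimmest members, with mean signals of up to 8200, had a median log2 ratio of 0.32, the middle 20 had 0.15 and the 20 brightest, from 15419 upwards, had 0.04. The Spearman correlation of ratio and mean signal over the 60 members was -0.48, and it was -0.01 over 3304 other genes and probes at least as bright as the dimmest member. After median scaling the 3 medians were 0.43, 0.30 and 0.24 and the correlation was -0.30. The points share both arrays, and the part of probe brightness in this order was not tested.

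Because other bright probes could shift in the same way, members were set beside them. Of the 60 members, 46 had a mean signal of at least 5000, a limit chosen after the values were seen, and 235 other genes and probes did. Among these bright ones the median log2 ratio was 0.10 for members and 0.00 for the others, and 73.9% of members but 49.4% of the others were above 0. At least 1.2-fold higher were 7 of the 46 bright members (15.2%), no more than the 19.1% of the others, but none was 1.2-fold lower, beside 22.1% of the others. After median scaling the medians were 0.28 for members and 0.15 for the others, and the others stood above 0 in 65.5% of cases. Then 26 bright members (56.5%) were at least 1.2-fold higher, beside 38.3% of the others, and none was 1.2-fold lower, beside 15.3%. Part of the shift after median scaling was thus shared with bright probes that carry no ribosomal protein name. Some of these may still belong to ribosomal protein genes, since 35 of the 100 brightest had no gene name.

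**Figure D3:**
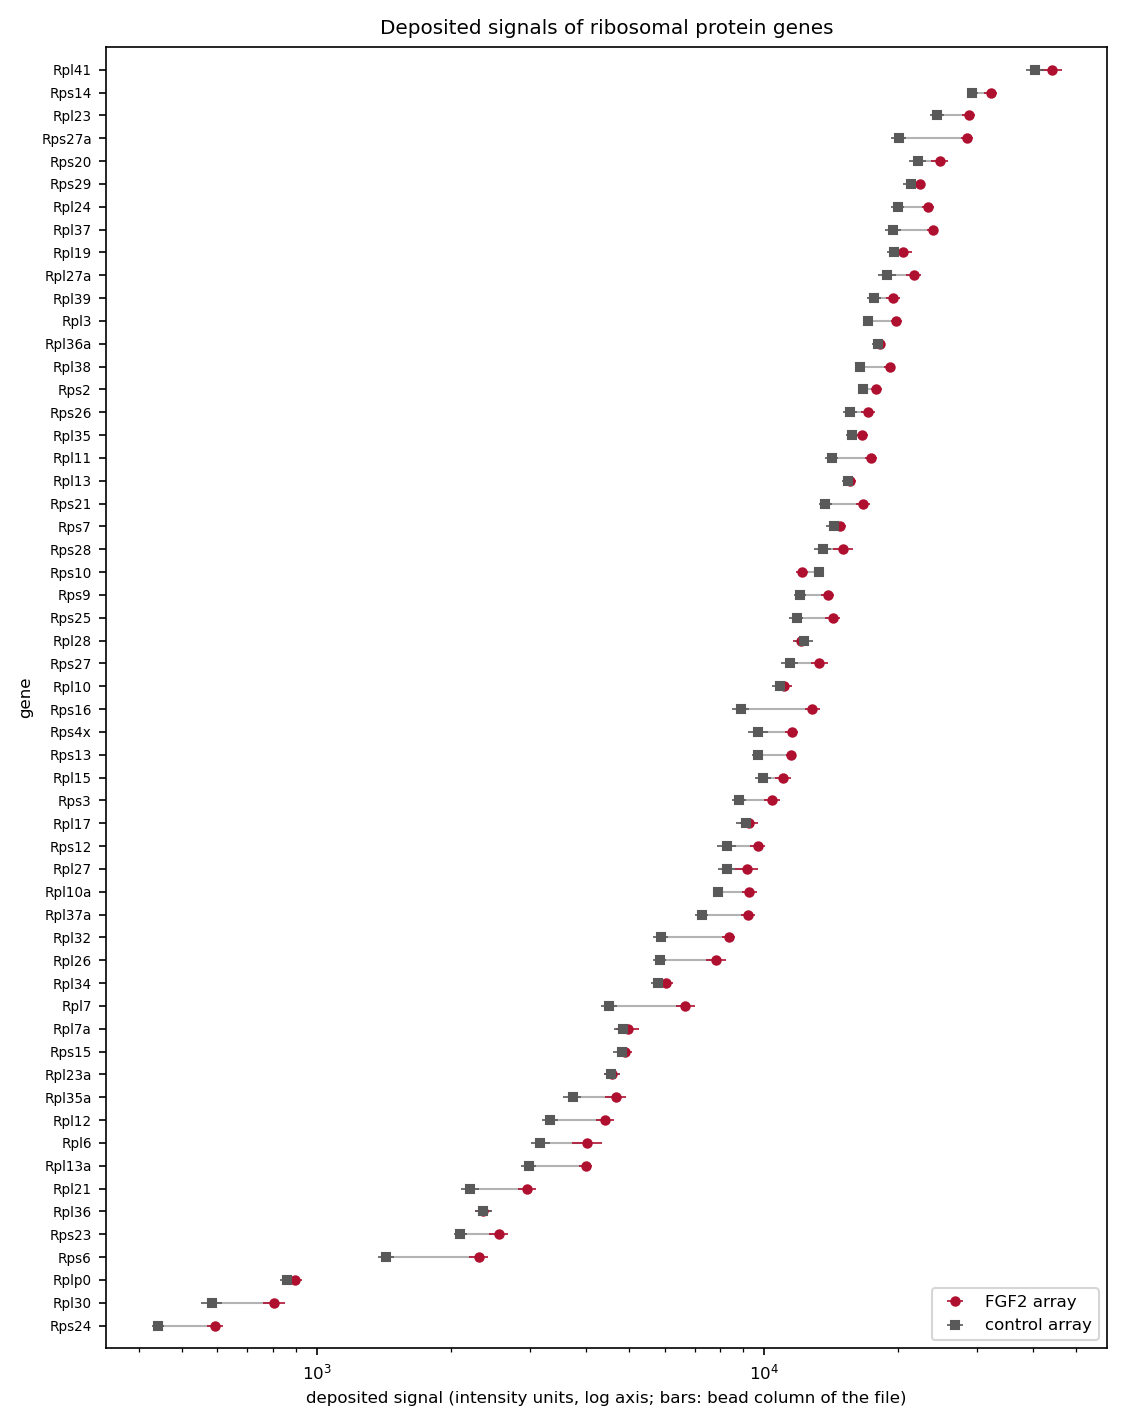
Deposited signals of 56 of the 60 members on the FGF2 array (circles) and the control array (squares), ordered by brightness on a log axis, with the bead column of the files as bars. Rps10, Rpl28 and Rpl36 have the lower signal on the FGF2 array, and signals of different probes do not rank transcripts.

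The stalk binds the elongation factors. Rplp0, its base, had a normalized signal of 914 with FGF2 and 844 without (log2 ratio 0.12, bead error 0.07). Rplp2, an acidic stalk protein, was not detected, and Rplp1 had no probe under the match. Rpl12, which sits at the foot of the stalk, had signals of 4340 with FGF2 and 3392 without (0.36), a 1.28-fold higher value. Rpl3, a protein that reaches toward the catalytic centre, had 19322 with FGF2 and 17561 without (0.14).

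Rpl11 and Rpl23 are among the members that can bind Mdm2, the ligase that degrades p53. Rpl11, which does so together with Rpl5 and the small ribosomal RNA of the large subunit, had 16897 with FGF2 and 14659 without (log2 ratio 0.20, bead error 0.07), and its fold was 1.15, or 1.29 after median scaling. Rpl23 had 26610 with FGF2 and 26466 without (0.01). Of the 60 members Rpl23 moved most with the scaling: its deposited signals were 28750 with FGF2 and 24417 without, and its fold was 1.25 after median scaling. Rpl5 had no probe under the match.

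Proteins around the exit tunnel, through which the new chain leaves, were described from 8 listed genes, of which 6 were detected. After quantile normalization 2 of these 6 were above 0 (33.3%, beside 52.3% of all detected genes), and their median log2 ratio was -0.02, or 0.16 after median scaling. Rpl26, also known to promote p53 translation, had the highest ratio of them, with 7693 with FGF2 and 6021 without (0.35, or 1.28-fold). Rpl39 stood at 0.03, Rpl17 and Rpl35 at -0.02 each, Rpl23a at -0.03 and Rpl19 at -0.04. All 5 lay within 1 bead error of 0. After median scaling the folds of these 5 were 1.17, 1.08, 1.11, 1.06 and 1.11, and that of Rpl26 was 1.42.

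Other large-subunit genes filled the range between these. Rpl37a (log2 ratio 0.32), Rpl6 (0.32) and Rpl35a (0.28), the last another gene of Diamond-Blackfan anaemia, passed 1.2-fold. Rpl10a (0.21), Rpl41 (0.18), Rpl37 (0.15), Rpl27 (0.12), Rpl38 (0.11), Rpl27a (0.09), Rpl24 (0.08) and Rpl15 (0.07) did not after quantile normalization. After median scaling Rpl10a, Rpl37, Rpl38, Rpl27a and Rpl24 passed it too, at folds from 1.22 to 1.30, while Rpl41, Rpl27 and Rpl15 did not. The background share at 1.2-fold under that scaling was 20%. Mutations of Rpl38 and Rpl24 give mice with skeletal and tail defects. Rpl41 codes for the shortest ribosomal protein, and its probe was the brightest member at 45281 with FGF2 and 39847 without. Rpl36, Rpl34 and Rpl7a stood at 0.00, -0.01 and -0.02, and at folds of 1.06, 1.10 and 1.08 after median scaling.

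Some ribosomal proteins are made as fusions with ubiquitin or a related protein. Rps27a, a ubiquitin fusion and a member, had 26466 with FGF2 and 21175 without (log2 ratio 0.32). Its deposited signals were 28514 with FGF2 and 20026 without, and its fold was 1.25 after quantile normalization and 1.51 after median scaling. Fau, a fusion of a ubiquitin-like protein with a small-subunit protein, is not a member by name. It had 7539 with FGF2 and 5708 without (0.40), so both genes were at least 1.2-fold higher.

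Small-subunit proteins along the path of the mRNA were listed under 8 names, of which 6 were matched to detected genes. The median log2 ratio of these 6 was 0.04, or 0.22 after median scaling. Above 0 were 4 of the 6 (66.7%, beside 52.3% of all detected genes). The list also named Rps30, the protein made from Fau, which was not matched under that name and is left out of these values. Fau itself stood at 0.40. Rps23, at the decoding site, had 2542 with FGF2 and 2099 without (0.28), and Rps3, at the entry, 10218 with FGF2 and 8762 without (0.22). Rps26, Rps2 and Rps15 stood at 0.05, 0.03 and -0.04. Further small-subunit genes were Rps12 (0.21), Rps25 (0.20), Rps13 (0.19), Rps21 (0.18), Rps4x (0.17), Rps27 (0.17), Rps9 (0.10), Rps28 (0.04) and Rps20 (0.04). None of these passed 1.2-fold after quantile normalization. After median scaling Rps12, Rps25, Rps13, Rps21, Rps4x, Rps27 and Rps9 did, at folds from 1.22 to 1.29, and Rps28 and Rps20 did not. The background share at 1.2-fold under that scaling was 20%. Rps4x, Rpl10, Rpl36a and Rpl39 are X-linked, and their median was -0.01, with folds between 1.07 and 1.26 after median scaling. Rps15 also turned positive there, at 1.08-fold.

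Rps9, Rpl27a and Rps3 each had a pair of detected probes, which shows how far a single probe can be trusted. The Rps9 probes gave 0.10 and 0.10 on the log2 scale, and the Rpl27a probes 0.09 and 0.06. The Rps3 probes gave 0.22 for the brighter and 0.60 for the dimmer one, a difference of 0.37. The dimmer Rps3 probe had normalized signals of 6378 with FGF2 and 4219 without and would put Rps3 at 1.51-fold.

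A further 7 members with a probe were not detected on either array, namely Rpl4, Rpl18, Rpl29, Rplp2, Rps15a, Rps18 and Rps19. Their deposited signals ran from 87.9 to 185 on the FGF2 array and from 118 to 171 on the control array, and the detection scores of Rpl4 were 0.984 with FGF2 and 0.853 without. The form of the probe ID went with detection. Of 55 member probes with 1 leading zero in the ID 54 were detected (98.2%), and of 20 with 2 zeros 9 were (45%). Among probes named for other genes the shares were 38.9% with 1 zero and 40.2% with 2. Rpl17, Rpl21, Rpl23, Rpl37 and Rpl38 each had a bright 1-zero probe beside an undetected 2-zero probe. Each of the 7 undetected members had only 1 probe, that of Rpl29 with 1 zero and the others with 2, so whether their low signals come from the probe or the gene was not tested. Rpl5, Rpl8, Rpl9, Rpl14, Rpl22, Rpl31 and Rplp1 had no probe under the match and were not analysed here.

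Paralogs and ribosomal proteins outside the naming rule were described from 10 listed genes, of which 5 were detected, Fau among them. All 5 were above 0 (100%, beside 52.3% of all detected genes), with a median log2 ratio of 0.25, or 0.27 after median scaling. Rps27l, a p53-inducible paralog of Rps27, had 12344 with FGF2 and 12161 without (log2 ratio 0.02). Rpl22l1 had 321 with FGF2 and 268 without (0.26), and Rpl7l1 677 with FGF2 and 569 without (0.25). Rps3a1, chosen after its values were seen, had 4721 with FGF2 and 3499 without (0.43). Rps4l, a paralog of Rps4x also chosen after its values were seen, had 404 with FGF2 and 484 without (-0.26 under both quantile normalization and median scaling, bead error 0.06). The probe for the RNA of the small subunit, 18S rRNA, likewise chosen after its values were seen, had 6454 with FGF2 and 7872 without (-0.29), or -0.16 after median scaling. The labelling starts from total RNA, and the sources used here do not say how far it copies this RNA.

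Genes that build ribosomes were compared from a list of 68 nucleolar and assembly factors, polymerase I genes and the transcription factors Myc, Mycn and Max. Of these, 31 had a named probe and 26 were detected, all on both arrays. Myc, Mycn and Max were not among the 26. Above 0 were 24 of 26 (92.3%, against the background of 52.3%), and the median log2 ratio was 0.35. At least 1.2-fold higher were 16 (61.5%, background 17.6%) and at least 1.5-fold higher 4 (15.4%, background 4.34%). After median scaling the median was 0.38, 18 genes (69.2%, background 20%) were at least 1.2-fold higher and 7 (26.9%, background 4.94%) at least 1.5-fold higher, with Eif6, Heatr1 and Nop2 added. In the authors' processed table, from which background was subtracted, the median was 0.58, with 22 genes (84.6%, background 29.5%) at least 1.2-fold and 12 (46.2%, background 11.2%) at least 1.5-fold higher. Genes of one process tend to move together from culture to culture, so these counts are descriptions of 2 arrays too.

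The 4 genes at least 1.5-fold higher after quantile normalization were Fbl, Polr1a, Mrto4 and Ebna1bp2. Fbl, the methyltransferase of ribosomal RNA, had 2516 with FGF2 and 1409 without (log2 ratio 0.84, 1.79-fold). Polr1a, the largest subunit of RNA polymerase I, had 1034 with FGF2 and 582 without (0.83, 1.78-fold). Both polymerase and methyltransferase act in the nucleolus, where ribosomal RNA is made. Mrto4, which prepares the site of the stalk, had 545 with FGF2 and 321 without (0.76, 1.70-fold), and Ebna1bp2 had 722 with FGF2 and 455 without (0.67, 1.59-fold). Of the 26 genes 2 were below 0. Tcof1, a cofactor of polymerase I, had 1128 with FGF2 and 1358 without (-0.27), and Pes1 had 831 with FGF2 and 941 without (-0.18). This list had a median mean signal of 579, far from the brightest probes, and the members' median was 10906.

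**Figure D4:**
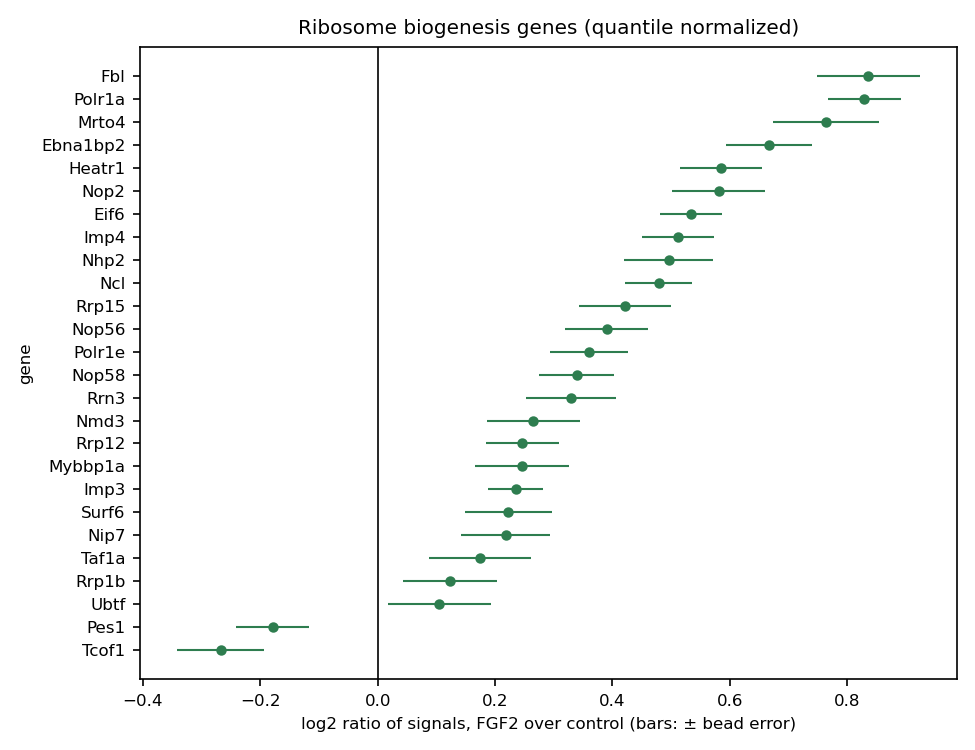
Log2 ratio of FGF2 over control for 26 detected ribosome biogenesis genes, highest at the top, with bead errors as bars (1 array each, quantile normalized). All but Pes1 and Tcof1 lie above 0, and Fbl, Polr1a, Mrto4 and Ebna1bp2 pass 1.5-fold.

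The sum of members' normalized signals was 8.79% of that of all detected genes and probes on the FGF2 array and 8.20% on the control array. The fibroblast label was checked on markers. Col1a1, Col1a2, Col3a1 and Dcn were detected, which are all 4 of the 10 listed fibroblast markers with a named probe. Their summed normalized signal was 10576 with FGF2 and 16728 without, but they did not move together. Col1a1 had 2697 with FGF2 and 9119 without, and Col1a2 and Col3a1 were also lower (log2 ratios -1.30 and -0.57), while Dcn had 6061 with FGF2 and 4528 without, a 1.34-fold higher value. Of markers with a named probe, 2 of 4 macrophage and blood, 1 of 2 endothelial and 1 of 2 epithelial ones were detected, with normalized signals of at most 385 with FGF2 and 268 without, of which Krt18 was the highest with FGF2. None of the 3 pluripotency markers with a named probe was detected. The part of these markers in the ribosomal protein ratios was not tested.

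**Figure D5:**
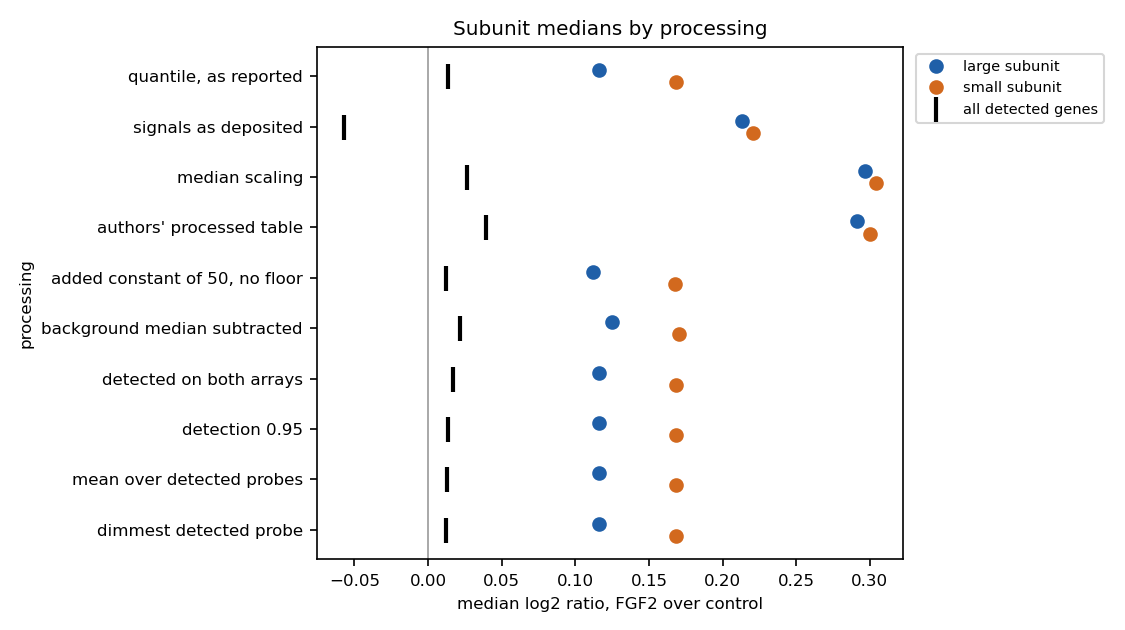
Median log2 ratio of FGF2 over control of the large and the small subunit under each processing, with all detected genes as bars. Both subunits lie to the right of all genes under each processing shown, between 0.11 and 0.30.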

How the data were processed

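Total RNA of 2 cultures was measured on 1-colour Illumina bead arrays, after linear amplification of 300 ng with 6 h of transcription and Cy3 labelling per the labels' protocols. BeadStudio 1.0 was used per the submitters' processing notes. Per the file headers, the deposited files list the mean signal intensity, the spread of the beads and a detection score of 24044 probes; the intensities carry background and are unscaled. The authors' processed table holds deposited intensities, which equal 1.05 times the difference of the FGF2 signal and 132, and the control signal minus 139. Of the probes, 8129 were detected with FGF2 and 8210 without (score of at least 0.99), and the median intensity of detected probes was 410 with FGF2 and 427 without.

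Gene names rest on reading the number after 1 or 2 zeros in a probe ID as an NCBI gene ID, which the files do not state; 8884 of 9523 such probes matched (93.3%). Signals were quantile normalized and floored at the lowest detected signal (193 with FGF2 and 192 without), and the log2 ratio was taken from each gene's brightest detected probe. The bead error combines both bead columns. The bead column was taken as it stands, since the number of beads is not given. No test was run because each group has 1 array. The named genes were the 8 highest and 8 lowest members, the 4 brightest and dimmest, those with several probes, those not detected and fixed role groups; other members are given by value. Some genes are not reported here by name but remain in counts and medians. The members and lists were chosen with earlier results of these data known. Alternatives covered scaling, background, detection, probe choice and brightness. The calculation was tested on simulated data. Scripts ran under Python 3.11.15 (scipy 1.17.1, pandas 2.3.3, numpy 2.4.6). Promoter sequences are from RefSeq, GRCm38.p6.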

Additional observations from a re-analysis of the deposited data

How the results depend on the processing

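Scaling was the choice that mattered. With signals as deposited the members' median log2 ratio was 0.22, the large-subunit median 0.21, and 3 members were below 0. With median scaling the medians of all members, the large and the small subunit were 0.30, 0.30 and 0.30; 1 member was below 0, 35 were at least 1.2-fold and 5 at least 1.5-fold higher. In the authors' processed table the medians were 0.29, 0.29 and 0.30, with 1 member below 0, 35 at least 1.2-fold and 7 at least 1.5-fold higher. At least 1.5-fold higher were also 3 members with background subtracted and 2 with the dimmest detected probe. Members above 0 numbered 44 as reported, 57 with signals as deposited and 59 both with median scaling and in the authors' processed table. With signals as deposited 21 members were at least 1.2-fold higher, beside 16 as reported, and the small-subunit median was 0.22. The other counts and medians moved little under the 10 alternatives. Of the 60 members, 44 were above 0 under all of these settings, Rps10 alone was below 0 under all, and 15 had both signs. Detection at 0.95 added 2 members. With 1 array a group, no array could be left out, and the number of arrays limits the precision.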
